A study of Sus scrofa with 3 samples.

Results

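The miR-148 and miR-152 family was described in the small RNA of porcine psoas major, the tenderloin muscle. Its members were all porcine mature miRNAs named miR-148 or miR-152, of any letter or arm, and 5 of the 276 porcine mature miRNAs listed in the 3 libraries met this rule. They were ssc-miR-148a-3p, ssc-miR-148b-3p and ssc-miR-152, which are the 3p arms of 3 hairpins, and the 2 opposite arms ssc-miR-148a-5p and ssc-miR-148b-5p. All 5 were read from 1 hairpin each and were detected in every library. The muscle came from fattening pigs of 63, 98 or 161 d, which were castrated males of a hybrid between Landrace, Large White and Duroc. Equal amounts of RNA from 6 pigs were pooled at each age and sequenced as 1 library. The feed was adjusted to body weight as the pigs grew, so that feed and age cannot be told apart. There were therefore no replicates, the spread between pigs was not measured, and no p-value is given. Each interval is a 95% interval for counting error and compares these libraries, not the ages. In such bulk RNA, more cells of a type and more RNA per cell cannot be told apart.

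A miRNA guides the silencing complex to messenger RNAs by pairing mainly through its seed, the bases close to its 5′ end, so that miRNAs with the same seed can share targets. The members of the miR-148 and miR-152 family are known to repress the DNA methyltransferases DNMT1 and DNMT3B. miR-148a is further known to promote myogenic differentiation by repressing the kinase ROCK1, and it is abundant in liver and in fat tissue. The usual product of each hairpin is its 3p arm, and the 5p arm is mostly degraded.

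The sequences below are those of the representative read of each member, which the deposited files give as DNA letters. They are shown because the shared seed defines the family and because single bases separate the 3p members. The capitals mark the seed, bases 2 to 8 from the 5′ end.
ssc-miR-148a-3p: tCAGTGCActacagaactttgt
ssc-miR-148b-3p: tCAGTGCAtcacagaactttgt
ssc-miR-152: tCAGTGCAtgacagaacttgg
ssc-miR-148a-5p: aAAGTTCTgagacactccgact
ssc-miR-148b-5p: gAAGTTCTgttatacactcaggct
hsa-miR-152-5p: aGGTTCTGtgatacactccgact

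The 3p members had 1 seed in common, and no other name in the files had a representative read with these letters at bases 2 to 8. Counted from 1 at the 5′ end, ssc-miR-148a-3p and ssc-miR-148b-3p differed by 2 substitutions, C9T and T10C. ssc-miR-148a-3p and ssc-miR-152 differed by 3, which were C9T, T10G and T20G, over the 21 bases of the shorter ssc-miR-152. ssc-miR-148b-3p and ssc-miR-152 differed by C10G and T20G. The longest run of bases shared with ssc-miR-152 was 9 for both other 3p members, whereas the pair ssc-miR-148a-3p and ssc-miR-148b-3p shared a run of 12. The 2 porcine 5p members had a seed of their own in common. The read of ssc-miR-148b-5p was 24 bases long, against 23 for its known mature form, and the other 4 members were read at their known lengths. The opposite arm of ssc-miR-152 was listed under the human name hsa-miR-152-5p, is no member by the rule, and had another seed. In the RefSeq gene table of another build (Sscrofa11.1), MIR148B lies within COPZ1 and MIR152 within COPZ2, a pair of genes for coatomer zeta subunits, and MIR148A overlaps no other gene. No positions are given, since the files hold no names of builds or chromosomes.

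ssc-miR-148a-3p was by far the most abundant member. Its expected counts, which are the reads of all isoforms of the arm, were 6585.5, 18670.5 and 18285.8 at 63, 98 and 161 d. Scaled to counts per 1000000 of all reads listed in each file (CPM), they were 4496, 7721 and 8153 CPM. The intervals of these levels were 4389 to 4606, 7611 to 7832 and 8037 to 8272 CPM. In this scaling the level was thus lowest at 63 d and similar at 98 and 161 d, although the last intervals did not overlap either. Among the 276 porcine miRNAs it held rank 22 at 63 d, rank 16 at 98 d and rank 15 at 161 d.

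ssc-miR-148b-3p shares the seed and most other bases of ssc-miR-148a-3p. Counted by all reads, it was more than an order of magnitude less abundant at 98 and 161 d. Its counts of 713, 1356.5 and 1286 gave 487, 561 and 574 CPM. The intervals were 452 to 524 at 63 d, 532 to 591 at 98 d and 543 to 606 CPM at 161 d, so that only the 63 d library stood apart in this scaling. Its rank was 70, 70 and 69.

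ssc-miR-152 had 444.5, 1211 and 794 counts, or 303, 501 and 354 CPM. The intervals were 276 to 333, 473 to 530 and 330 to 380 CPM. The 98 d library was the highest, and the intervals of the 63 and 161 d libraries overlapped slightly at their ends. ssc-miR-152 held rank 87, 74 and 82, and it was below ssc-miR-148b-3p at every age, most narrowly at 98 d.

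The 5p members were close to each other and were read at few counts. ssc-miR-148b-5p had 21, 46 and 51 counts, or 14.3, 19.0 and 22.7 CPM. ssc-miR-148a-5p had 23, 31 and 48 counts, or 15.7, 12.8 and 21.4 CPM. Their intervals overlapped at each age, so their order could not be resolved at this depth. All 5 members were above the level of 3 counts, which was 2.05, 1.24 and 1.34 CPM in the libraries. Summed over the 5 members, the family took 0.532%, 0.881% and 0.913% of all reads.

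**Figure D1:**
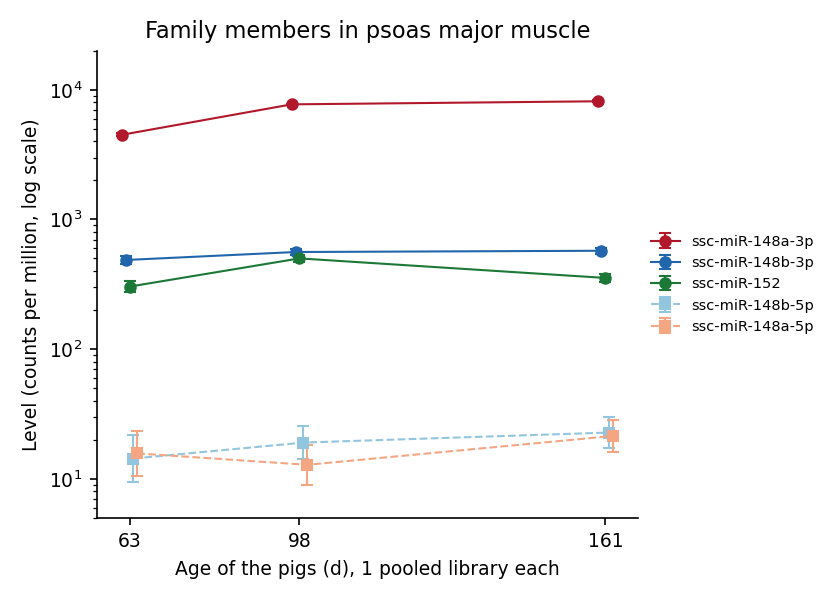
The level of each family member in CPM (log scale) is plotted against the age of the pigs, with 1 pooled library per age and 95% intervals of the counting error as bars. ssc-miR-148a-3p lies between 4496 and 8153 CPM, ssc-miR-148b-3p and ssc-miR-152 lie between 303 and 574 CPM, and the 5p members lie below 23 CPM.

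The libraries listed 1464699, 2418187 and 2242716 reads at 63, 98 and 161 d, of which ssc-miR-133a-3p alone took 43.3%, 36.2% and 44.0%. Over the porcine miRNAs with at least 100 counts in both libraries of a pair, the median fold change was 1.23 between the first pair of ages, 0.821 between the second and 0.969 over the whole span. Fold changes are therefore also given relative to this median, a quotient that is the same under every scaling.

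The comparison of 63 with 98 d asked which members differed between the growing ages. The level of ssc-miR-148a-3p was 1.72-fold higher at 98 d (interval 1.67 to 1.77), and that of ssc-miR-152 was 1.65-fold higher (1.48 to 1.85). ssc-miR-148b-3p was 1.15-fold higher (1.05 to 1.26), which is below the median of all miRNAs. With TMM, with DESeq2, without the reads of ssc-miR-133a-3p in the total, or with reads without error alone, the fold of ssc-miR-148b-3p was 1.03, 1.02, 1.02 or 1.12, and each of these intervals included 1. Relative to the median of all miRNAs, the folds were 1.40 for ssc-miR-148a-3p, 1.34 for ssc-miR-152 and 0.937 for ssc-miR-148b-3p. ssc-miR-148a-3p had a larger fold than 119 of the 147 other miRNAs, ssc-miR-152 than 115 and ssc-miR-148b-3p than 66. The fold of ssc-miR-148b-5p was 1.33 (0.776 to 2.34) and that of ssc-miR-148a-5p was 0.816 (0.461 to 1.47). Both 5p intervals included 1. The summed family was 1.66-fold higher at 98 d (1.62 to 1.70).

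From 98 to 161 d ssc-miR-152 parted from the other 3p members. ssc-miR-148a-3p was 1.06-fold higher at 161 d (1.03 to 1.08), and ssc-miR-148b-3p gave a fold of 1.02 (0.947 to 1.10). With TMM and DESeq2 the fold of ssc-miR-148b-3p was 1.20 (1.11 to 1.30) and 1.26 (1.17 to 1.36), so that its 161 d library stood apart there. That of ssc-miR-148a-3p was 1.24 (1.22 to 1.27) with TMM and 1.31 (1.28 to 1.33) with DESeq2. Scaled to the clean reads of the study, it was 0.882. ssc-miR-152 was lower, with a fold of 0.707 (0.646 to 0.774). Relative to the median of all miRNAs these folds were 1.29, 1.24 and 0.860. Of the 153 other miRNAs, 130 had a smaller fold than ssc-miR-148a-3p, 126 a smaller one than ssc-miR-148b-3p and 48 a smaller one than ssc-miR-152. ssc-miR-148a-5p was 1.67-fold higher (1.04 to 2.71), and ssc-miR-148b-5p gave a fold of 1.20 (0.787 to 1.82). In the scaling to all reads the summed family differed little between these libraries, with a fold of 1.04 (1.02 to 1.06).

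Over the whole span from 63 to 161 d, ssc-miR-148a-3p was 1.81-fold higher (1.76 to 1.87). ssc-miR-148b-3p was 1.18-fold higher (1.07 to 1.29) and ssc-miR-152 was 1.17-fold higher (1.04 to 1.31). Relative to the median of all miRNAs the folds were 1.87 for ssc-miR-148a-3p, 1.22 for ssc-miR-148b-3p and 1.20 for ssc-miR-152. The fold of ssc-miR-148a-3p exceeded that of 134 of the 141 other miRNAs, against 94 for ssc-miR-148b-3p and 91 for ssc-miR-152. The folds of the 5p members were 1.59 for ssc-miR-148b-5p (0.937 to 2.78) and 1.36 for ssc-miR-148a-5p (0.813 to 2.35). The summed family was 1.72-fold higher at 161 d (1.67 to 1.76). The comparisons share libraries, so their values are not independent of each other.

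**Figure D2:**
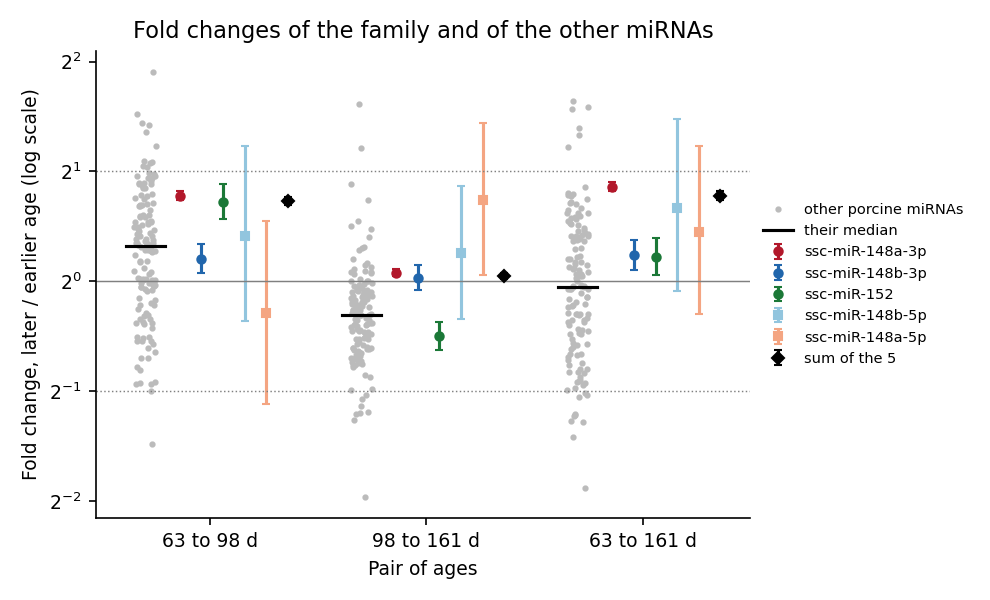
The fold change of each member and of the sum of the 5 members (later over earlier age, log scale) is plotted for each pair of ages beside the other porcine miRNAs with at least 100 counts in every library (grey points, with their median as a black bar). Error bars are 95% intervals of the counting error and dotted lines mark folds of 0.5 and 2. No member's point lies past these lines, and ssc-miR-148a-3p at 1.81 from 63 to 161 d lies above most grey points.

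The limits were a fold above 2 or below 0.5. They are part of the criterion of the study, which also requires a p-value that is not given here. In the scaling to all reads of a file, 0 of the 5 members were past them in each of the 3 pairs. Among all porcine miRNAs with at least 10 counts in a library of the pair, 18.8% were past the limits in the pair 63 and 98 d, 15.3% in the pair 98 and 161 d, and 19.5% in the pair 63 and 161 d. In 2 scalings of the libraries this count changed. Per clean read of the study, which counts all small RNA left after its filters, ssc-miR-148a-3p gave folds of 2.53, 0.882 and 2.23 in these pairs, and ssc-miR-152 gave 2.43 from 63 to 98 d. Of the porcine miRNAs, 44.2% were then past the limits in the first pair and 22.9% over the whole span. With the scaling of DESeq2, ssc-miR-148a-5p gave 2.06 from 98 to 161 d, from 31 and 48 counts, and 12.0% of the porcine miRNAs were past the limits. Over the 6 scalings run, the fold of ssc-miR-148a-3p from 63 to 161 d was between 1.79 and 2.23, and that of ssc-miR-152 from 98 to 161 d was between 0.590 and 0.873. The direction of ssc-miR-148a-3p, ssc-miR-148b-3p, ssc-miR-148b-5p and the summed family from 98 to 161 d was the opposite per clean read of that in the other 5 scalings, as was that of ssc-miR-148a-5p from 63 to 98 d. For ssc-miR-148b-3p and both 5p members, the interval in the scaling to all reads included 1 in these pairs, so no direction was resolved there. The fold of ssc-miR-148b-5p per clean read was 0.999 (0.657 to 1.52).

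**Figure D3:**
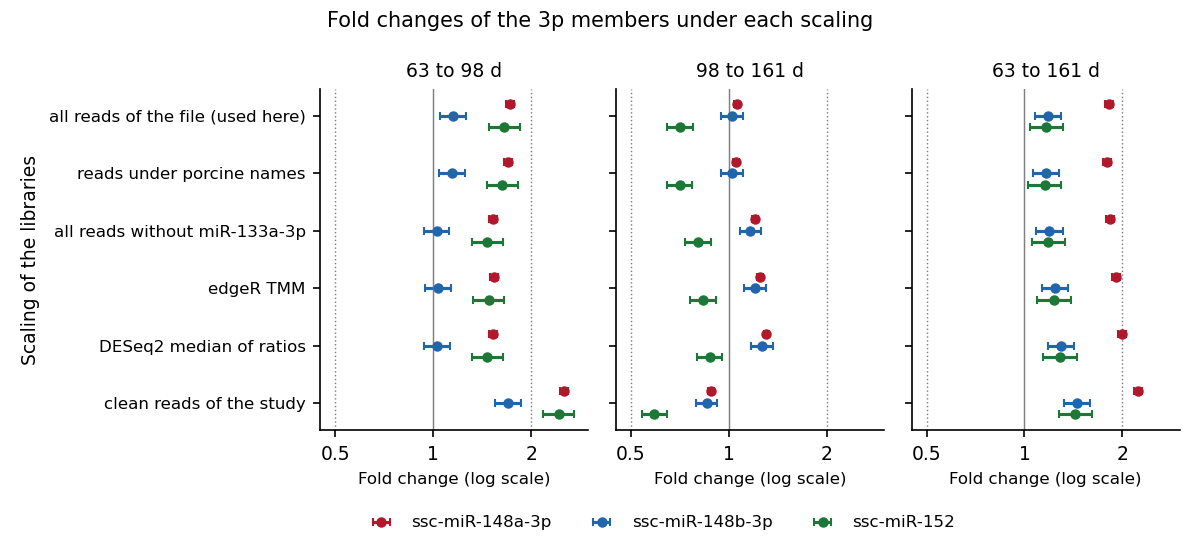
The fold changes of the 3p members (log scale) are plotted for each pair of ages under 6 scalings of the libraries, with 95% intervals of the counting error. Within a pair the 3 members keep their distances under every scaling, and ssc-miR-148a-3p from 63 to 161 d runs from 1.79 to 2.23.

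Ratios between members within a library do not depend on the scaling. They do depend on which reads are counted, and all reads were counted here. Reads mapped without error at 63 d were 6058 for ssc-miR-148a-3p, 444 for ssc-miR-148b-3p and 187 for ssc-miR-152, so that ratios from these would be higher. The ratio of ssc-miR-148a-3p to ssc-miR-148b-3p was 9.24, 13.8 and 14.2 at 63, 98 and 161 d, with intervals of 8.55 to 9.99, 13.0 to 14.6 and 13.4 to 15.1. It was therefore 1.49-fold higher at 98 d than at 63 d (1.35 to 1.64). The later change was 1.03 (0.954 to 1.12), so the libraries of 98 and 161 d did not differ beyond counting error.

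The ratio of ssc-miR-148a-3p to ssc-miR-152 took another course. It was 14.8, 15.4 and 23.0 at 63, 98 and 161 d, with intervals of 13.5 to 16.4, 14.5 to 16.4 and 21.4 to 24.8. The change between the first pair of ages was 1.04 (0.927 to 1.16) and that between the second was 1.49 (1.36 to 1.64). Over the whole span the ratio of ssc-miR-148a-3p was 1.54-fold higher against ssc-miR-148b-3p (1.40 to 1.70) and 1.55-fold higher against ssc-miR-152 (1.37 to 1.75).

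ssc-miR-148b-3p and ssc-miR-152 stood in the ratios 1.60, 1.12 and 1.62 at 63, 98 and 161 d, with intervals of 1.42 to 1.81, 1.04 to 1.21 and 1.48 to 1.77. The 63 and 161 d libraries were alike within counting error, with a change of 1.01 (0.867 to 1.17), and the 98 d library stood apart. As a share of the reads of the 3p members, ssc-miR-148a-3p took 85.1%, 87.9% and 89.8% in this order of ages, with intervals of 84.2 to 85.8, 87.5 to 88.3 and 89.4 to 90.2. ssc-miR-148b-3p took 9.21%, 6.39% and 6.32%, and ssc-miR-152 took 5.74%, 5.70% and 3.90%.

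**Figure D4:**
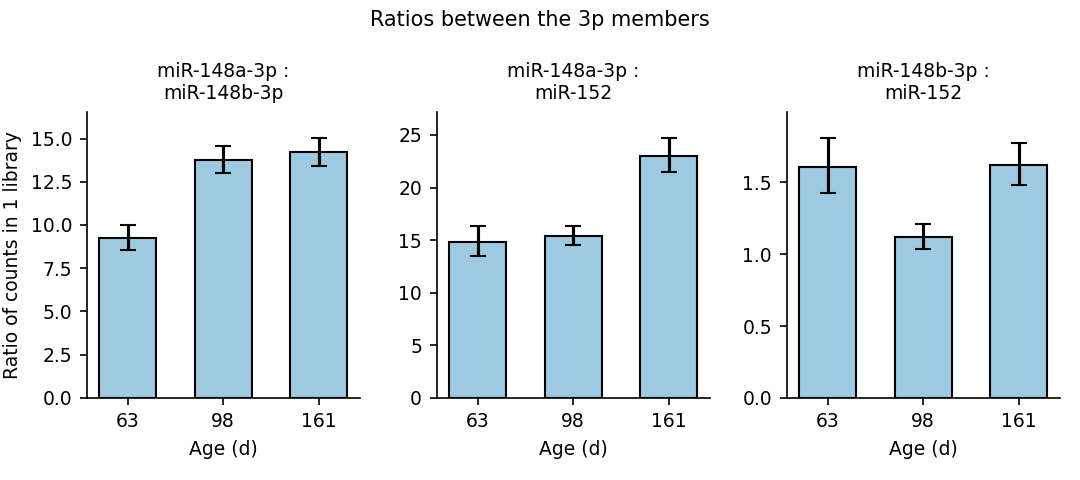
The ratios of counts between the 3p members are plotted for each age, with 1 panel per pair of members and 95% intervals of the counting error. The first ratio is higher at 98 and 161 d than at 63 d, the second is highest at 161 d with 23.0, and the third is lowest at 98 d with 1.12.

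The 3p members differed in the make-up of their reads. The files split the reads of an arm into those mapped without error and those with at least 1 error, and give the copies of the representative read. Of the reads of ssc-miR-148a-3p, 89.1%, 90.2% and 90.3% were copies of the representative read at 63, 98 and 161 d, and 8.01%, 7.65% and 7.33% had mapping errors. Of the reads of ssc-miR-148b-3p, 57.9%, 55.5% and 55.9% were such copies, and 37.7%, 40.7% and 38.7% had mapping errors. Of the reads of ssc-miR-152, 35.3%, 34.1% and 37.3% were such copies, and 57.9%, 59.8% and 54.8% had mapping errors. The order of the 3 members was the same in each library, and their intervals did not overlap at any age.

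Over the porcine miRNAs listed at 1 hairpin with at least 100 reads, the median share of reads with errors was 15.9%, 15.5% and 15.8%. Only 6 of 123 others had a higher share than ssc-miR-152 at 63 d, 4 of 139 at 98 d and 9 of 130 at 161 d. For ssc-miR-148b-3p, 13, 12 and 15 others had a higher share. ssc-miR-148a-3p was at the opposite end, since 100, 118 and 111 others had a higher share. The files do not say which bases of these reads were in error. In the family, all fractions of a read, which mark reads divided between several hairpins, were in the reads with errors, and at most 1.52% of the reads of a family hairpin were credited elsewhere.

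Counted by the representative read alone, ssc-miR-148a-3p took 91.1%, 93.5% and 94.2% of the 3p members, more than by all reads at each age. The lower level of ssc-miR-152 at 161 d than at 98 d was smaller in the reads without error, with a fold of 0.786 in place of 0.707.

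**Figure D5:**
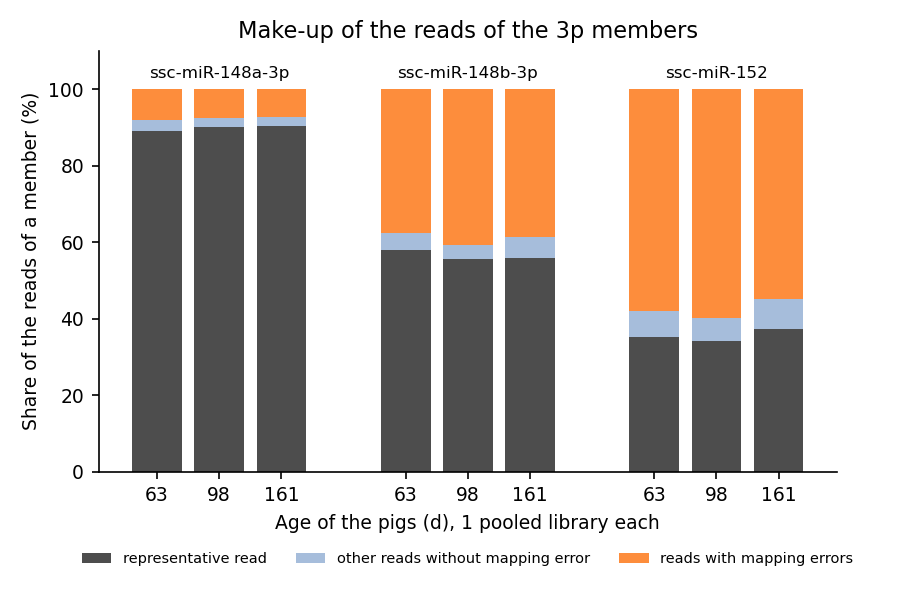
The reads of each 3p member are split for each age into copies of the representative read, other reads without mapping error and reads with mapping errors, in percent of the reads of the member. The share with errors is at most 8.01% for ssc-miR-148a-3p, between 37.7% and 40.7% for ssc-miR-148b-3p and between 54.8% and 59.8% for ssc-miR-152.

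The arms of the hairpins were unequally read. The 5p arm took 0.348% of the reads of hairpin ssc-mir-148a at 63 d (interval 0.232 to 0.522). At the later ages it took 0.166% (0.117 to 0.235) and 0.262% (0.198 to 0.347). In hairpin ssc-mir-148b its share was larger at each age without overlap of the intervals, with 2.86% (1.88 to 4.33), 3.28% (2.47 to 4.35) and 3.81% (2.91 to 4.98). In hairpin ssc-mir-152 the arm hsa-miR-152-5p took 1.77% (0.900 to 3.45), 1.38% (0.866 to 2.21) and 0.874% (0.424 to 1.79).

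The intervals of the shares overlapped between ages in all 3 hairpins. In ssc-mir-148a the ratio of the 5p to the 3p arm was lower at 98 d than at 63 d, with a change of 0.475 (0.268 to 0.855). The change was 1.58 (0.985 to 2.57) between 98 and 161 d and 0.752 (0.448 to 1.30) over the whole span, and both intervals included 1. Among the porcine hairpins with both arms named and at least 100 reads, the median share of the lesser arm was 5.35%, 5.75% and 6.16%. Only 8 of 45 such hairpins at 63 d, 3 of 52 at 98 d and 7 of 51 at 161 d had a smaller share than ssc-mir-148a. For ssc-mir-148b the numbers were 19, 20 and 21, so its share was nearer to the median. The 5p shares of all 3 hairpins were below the median at each age. ssc-mir-152 was not ranked, since its 5p arm has no porcine name.

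The miRNAs whose pattern over the 3 libraries was most like that of a member were sought among the 141 others with at least 100 counts in every library. The measure was the distance between log2 CPM values centred on their mean, over 3 points only, so close patterns are found for any miRNA. Nearest to ssc-miR-148a-3p was ssc-miR-29c, with 133, 231 and 242 CPM (distance 0.010), followed by ssc-miR-137 (0.12) and ssc-miR-10a-5p (0.12). Nearest to ssc-miR-148b-3p were ssc-miR-151-3p (0.025), ssc-miR-331-3p (0.058) and ssc-miR-27a (0.10). Nearest to ssc-miR-152 were ssc-miR-142-5p (0.029), ssc-miR-155-5p (0.10) and ssc-miR-22-5p (0.11). The 3p members were farther from each other, at 0.49 for ssc-miR-148a-3p and ssc-miR-148b-3p, 0.50 for ssc-miR-148a-3p and ssc-miR-152, and 0.43 for ssc-miR-148b-3p and ssc-miR-152.

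The seed of the family also begins the reads of ssc-miR-130a, ssc-miR-130b and ssc-miR-301, shifted by 1 base to bases 1 to 7, and no other porcine name had it there. ssc-miR-130a had 251, 339 and 269 CPM, ssc-miR-301 had 406, 413 and 314 CPM, and ssc-miR-130b had 109, 110 and 52.6 CPM. From 63 to 161 d their folds were 1.07, 0.773 and 0.482 in this order. Those of the 3p members were 1.81 for ssc-miR-148a-3p, 1.18 for ssc-miR-148b-3p and 1.17 for ssc-miR-152. Of the 141 other miRNAs, 134 had a smaller fold than ssc-miR-148a-3p. ssc-miR-130a, ssc-miR-130b and ssc-miR-301 were each less abundant than ssc-miR-148a-3p at every age.

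The tissue label was checked against miRNAs known to mark cell types. Striated muscle miRNAs (miR-1, miR-133a, miR-133b, miR-206, miR-208b and miR-499) were all detected and summed to 450735, 401249 and 466147 CPM. Most of each sum was ssc-miR-133a-3p, with 432681, 361663 and 439710 CPM. By contrast, ssc-miR-1 was highest at 98 d, with 12377, 31642 and 21259 CPM. The same held for miR-133b, miR-206, miR-208b and both arms of miR-499, whereas ssc-miR-133a-5p was highest at 63 d. Because miR-148a is abundant in liver, the liver miRNAs are set beside it. ssc-miR-122 had 11, 297 and 12 counts and ssc-miR-192 had 39, 426.5 and 106 counts, so that both were highest at 98 d and summed to 34.1, 299 and 52.6 CPM. Their part in the level of ssc-miR-148a-3p was not tested. The red blood cell miRNAs summed to 808, 1491 and 1069 CPM, the white blood cell miRNAs to 1096, 1488 and 985 CPM, and the endothelial miR-126 arms to 5833, 9769 and 6759 CPM. The epithelial miRNAs summed to 173, 327 and 255 CPM. The blood cell, endothelial and epithelial sums were all highest at 98 d, as were the liver miRNAs and ssc-miR-152. Within the white blood cell list, ssc-miR-150 was highest at 63 d, with 464, 435 and 287 CPM. Of the porcine miRNAs with at least 100 counts in both libraries, 66.2% were higher at 98 d than at 63 d. From 98 to 161 d, 21.4% were higher at 161 d, so that a high 98 d level was common in this scaling. The part of these cell types in the level of ssc-miR-152 was not tested. The smooth muscle miRNAs summed to 9415, 11874 and 27273 CPM, highest at 161 d as ssc-miR-148a-3p was, and their part in its level was not tested.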

How the data were processed

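Small RNA libraries of psoas major muscle, 1 pool of 6 pigs per age, were sequenced on an Illumina HiSeq 2000. Per the labels, the authors processed the reads with ACGT101-miR v4.2, and the study states a comparison with miRBase. The deposited files hold expected counts, the reads of all isoforms of 1 arm of a hairpin, without normalisation, in which the authors split reads matching more than 1 hairpin. Beside them the deposited files give counts, the copies of the representative read. The genome build is not given in the sources used here.

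The expected counts were scaled to counts per 1000000 of all reads listed in a file and rounded to whole numbers for the intervals. Where a miRNA had more than 1 hairpin, the hairpin present in most libraries was used, then the first in the file, and blank names in the 63 d file were filled from the known name of the row. The libraries held 1464699, 2418187 and 2242716 reads, and 3 counts, taken as the floor, were 2.05, 1.24 and 1.34 CPM. Fold changes carry Clopper-Pearson intervals, shares Wilson intervals and changes of ratios exact conditional intervals, all at 95% and for counting error only. Reads carry no molecular identifiers.

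The members, the lists and the limits were chosen with earlier results of these data known. Named beside the members were the 3 miRNAs of nearest pattern to each 3p member (at least 100 counts in every library), rows of miR-148 or miR-152 under other names, the list with the shifted seed and the marker lists. Of the marker lists, miR-141, miR-200a, miR-200b, miR-200c and miR-223 had no row under a porcine name. Alternatives were scaling to the clean reads of the study, by edgeR's TMM, by DESeq2 and to reads under porcine names, the representative read or reads without error only (each scaled to its own total), the sum over hairpins, a pseudocount of 1 CPM, other minimums of counts and other names. A library total without ssc-miR-133a-3p was added after the data had been seen. Programs were R 4.3.3 (DESeq2 1.42.0, edgeR 4.0.16) and Python 3.11.15 (matplotlib 3.10.9, scipy 1.17.1, pandas 2.3.3, numpy 2.4.6).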

Additional observations from a re-analysis of the deposited data

Results flagged for a closer look

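The 5p arm of hairpin ssc-mir-152 was read under the human name hsa-miR-152-5p, outside the porcine names that define the family. Its 8, 17 and 7 reads at 63, 98 and 161 d were each above the 3 counts taken as the floor. The other names of miR-148 or miR-152, which were oan-miR-148-5p and ptr-mir-152-p5, had at most 3 reads in a library.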

How the results depend on the processing

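No paired analysis was possible because each age had 1 library, and no replicate could be left out. Of the values that answer a comparison, 82 of 111 stayed within the interval (or, for counts, within 1.5 times) of the value in the report. Of those of single members and of the background, 127 of 168 did. Both tallies include values that could not move, so they overstate the stability of the results. The sum over hairpins could not change a member, since each was read from 1 hairpin. Rows under other names left the ratios between members and the share of ssc-miR-148a-3p identical. Another minimum of counts for the background could not raise the count of members past the limits. In the order 63 to 98, 98 to 161 and 63 to 161 d, the summed family gave folds of 2.44, 0.865 and 2.11 per clean read of the study, so that the direction from 98 to 161 d was reversed, as it was for ssc-miR-148a-3p at 0.882. It gave 1.49, 1.22 and 1.81 with TMM, 1.47, 1.28 and 1.89 with DESeq2, and 1.73, 1.08 and 1.87 with the representative read. Reads without error gave 1.77 from 63 to 161 d, and the total without ssc-miR-133a-3p gave 1.47 and 1.18 in the first 2 pairs. Per clean read, 2 members were past the limits from 63 to 98 d and 1 from 63 to 161 d, and with DESeq2 1 was from 98 to 161 d, where 44.2%, 22.9% and 12.0% of all porcine miRNAs were. Of all miRNAs past the limits, 77.8%, 21.6% and 43.5% were above 2 in the report's scaling, 96.2%, 12.0% and 72.2% per clean read, 59.5%, 36.4% and 47.7% with TMM, 59.5%, 48.3% and 51.1% with DESeq2, and 59.5% in the first pair without ssc-miR-133a-3p.

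The share of ssc-miR-148a-3p in the 3p members was 91.1%, 93.5% and 94.2% by the representative read and 90.6%, 93.0% and 93.7% by reads without error at 63, 98 and 161 d. Reads without error put the change of its ratio to ssc-miR-152 from 98 to 161 d at 1.33, and the 5p arm of ssc-mir-148b at 5.18% at 98 d and 5.85% at 161 d. The 5p arm of ssc-mir-152 at 161 d was 2.31% by the representative read and 1.91% by reads without error. The causes were not tested. Depth limits the 5p members, with 21 to 51 counts, and the lack of replicates limits every value.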
